A study of Mus musculus with 7 samples.

Results

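The 4 Notch receptors Notch1, Notch2, Notch3 and Notch4, the ligands Jag1, Jag2, Dll1 and Dll4, and the target genes Hes1 and Hey1 were followed in whole mammary glands from 7 mice. The 10 genes were found by the gene names that the scanner files give to their probes, and they have 15 of the 56605 probes, and are 10 of the 37074 gene names, on the array. RNA of each animal was labeled with Cy5 on an array of its own, and the Cy3 channel of every array carried Universal Mouse Reference RNA (UMRR), pooled from mouse cell lines. Setting 3 wild-type against 4 PRA transgenic glands asks how an excess of progesterone receptor A bears on gland expression. All animals were nulliparous FVB mice aged 20 to 25 weeks and in diestrus, and the wild-type animals were littermates. PRA transgenic animals were bigenic, with a GAL-4 transactivator under a cytomegalovirus promoter and an added PR-A gene under GAL-4-binding sites, so that the driver is not one of a single mammary cell type. Each sample was 1 abdominal gland taken after its lymph nodes had been cut away, and it held every cell type of the gland and its fat pad. Fewer cells of a type and less RNA per cell cannot be told apart in such samples.

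Notch signaling passes between touching cells. A Jagged or Delta-like ligand on one cell binds a Notch receptor on its neighbor, ADAM proteases and then gamma-secretase cut the receptor, and the freed intracellular domain enters the nucleus, where it joins the DNA-binding protein Rbpj and Mastermind-like co-activators at genes such as Hes1 and Hey1. In the mammary gland the pathway is known for its part in luminal cell fate. In blood vessels Dll4 and Notch4 belong to the endothelium and Notch3 to the mural cells.

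No member separated the genotypes. In the ratio of gland to reference, 5 members had a higher mean in PRA transgenic glands (background 52.7% of genes) and 5 a lower one, and limma called none of the 10 at an adjusted p under 0.05 (background 0.00444% of 22499 genes) or at an unadjusted p under 0.05 (background 7.95%). The lowest adjusted p was 0.649, for Jag1. In no member did the 3 wild-type and the 4 PRA transgenic values lie apart, against 9.09% of all genes. The median log2 fold change, PRA transgenic minus wild-type, was 0.10 over the members and 0.01 over all genes, and the median absolute log2 fold change was 0.24 over the members and 0.16 over all genes. What set members apart was the spread among animals, which was narrow for Notch3 and Hes1 and several-fold for Hey1.

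**Figure D1:**
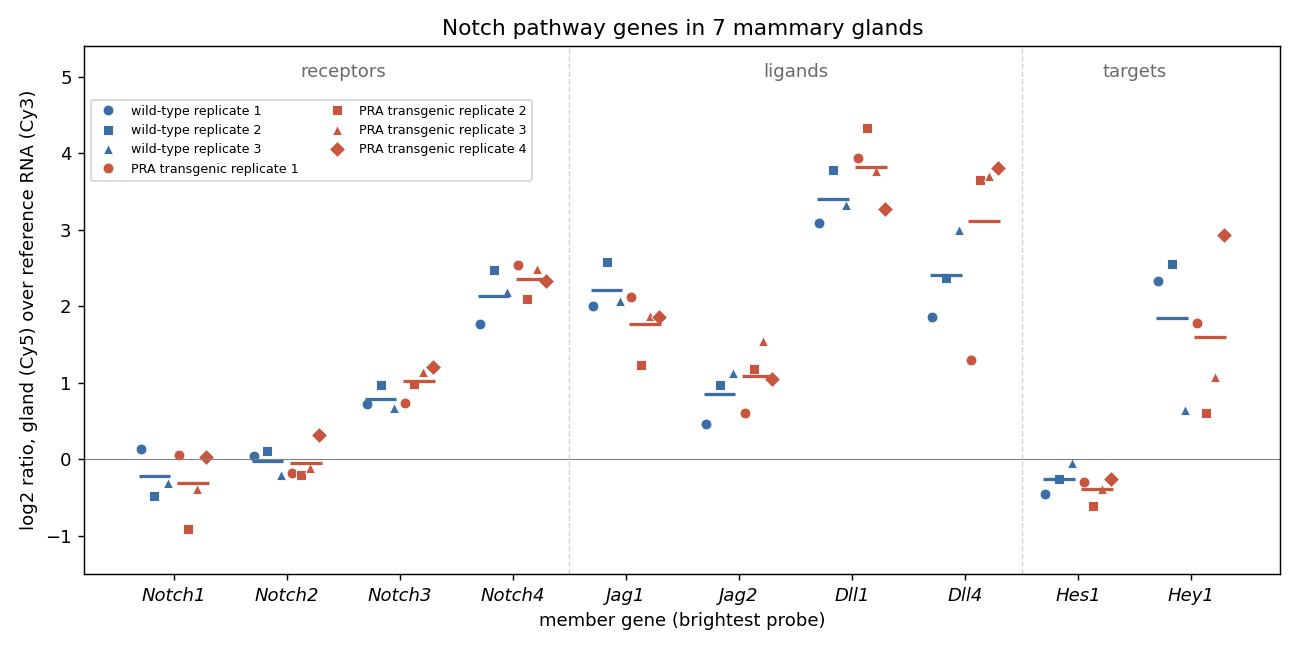
Log2 ratio of gland (Cy5) to reference RNA (Cy3) for the brightest probe of each of the 10 genes, with 1 point per animal (3 wild-type, 4 PRA transgenic) and bars at the genotype means. The genotypes overlap for every gene, Hey1 runs from 0.61 to 2.93, and heights of different genes are not comparable because each probe has its own response.

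The arrays carried the labeled tissue. All 10 luminal epithelial, 10 endothelial and 7 white adipocyte markers looked for had Cy5 well above background on every array. In Cy5 62.6 to 66.1% of probes were well above background on wild-type and 56.6 to 60.2% on PRA transgenic arrays, and in the Cy3 reference 53.2 to 54.0% and 47.2 to 50.6%. The arrays shared 1 slide, with all wild-type arrays in its first row and all PRA transgenic arrays in its second, so the effects of row and of genotype cannot be told apart. Some glands stood apart by other tissue. Skeletal muscle markers had a mean log2 ratio of 2.15, 3.04 and 3.15 in wild-type replicates 1 and 3 and PRA transgenic replicate 4, against -0.59 to -0.17 in the other animals, and T cell markers stood at 1.76 in wild-type replicate 1 against -0.43 to 0.15 elsewhere. Pgr, the progesterone receptor gene, ranged from 4.04 to 7.05 in wild-type and from 3.32 to 5.38 in PRA transgenic glands (log2 fold change -0.65, SE 0.80, adjusted p = 0.859 by limma), and whether its probe detects the transgene is not given in the sources used here.

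The receptors were first compared. Notch1, which is read by a probe at chr2:26319440-26319499 of mm9, had log2 ratios of 0.14, -0.48 and -0.31 in wild-type replicates 1 to 3 and of 0.05, -0.91, -0.39 and 0.04 in PRA transgenic replicates 1 to 4. The genotypes overlapped throughout, and PRA transgenic replicate 2 was the lowest animal. Notch1 had a log2 fold change of -0.09 (SE 0.28, adjusted p = 0.961 by limma, 95% interval -0.73 to 0.56) in the ratio. Cy5 taken alone, as log2 signal minus the 75th percentile of the array, gave -0.40 (95% interval -1.18 to 0.39), and the Cy3 reference alone differed by -0.30. Notch2 (chr3:97953914-97953973) stood at 0.04, 0.11 and -0.20 in wild-type and at -0.17, -0.21, -0.11 and 0.32 in PRA transgenic glands. Its wild-type values lay inside the PRA transgenic range, in which replicate 4 was highest. For Notch2 the log2 fold change of -0.03 (SE 0.17) had a 95% interval of -0.42 to 0.37, so that a difference of more than 1.34-fold in the ratio lay outside it, and Cy5 alone gave 0.09.

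Notch3 (chr17:32257888-32257947) had log2 ratios of 0.72, 0.97 and 0.68 in wild-type and of 0.73, 0.99, 1.14 and 1.21 in PRA transgenic glands. The 3 highest animals were PRA transgenic and the lowest was wild-type replicate 3, but wild-type replicate 2 lay above PRA transgenic replicate 1. Notch3 had a log2 fold change of 0.23 (SE 0.16, adjusted p = 0.715 by limma), with a 95% interval up to 1.51-fold. Cy5 alone gave 0.22 for Notch3. The mural cell markers among which Notch3 is known to be expressed ranged from 3.18 to 3.54 in wild-type and from 2.89 to 3.30 in PRA transgenic glands (6 of 6 markers tested), overlapping ranges with the lowest values in PRA transgenic glands. Across the 7 animals Notch3 and these markers had a Pearson r of -0.17 (exact permutation p = 0.718) and a Spearman rho of -0.32 (exact permutation p = 0.498). The part of these markers in the genotype difference of Notch3 was not tested.

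Notch4, the endothelial receptor, has 3 probes, and they are not equivalent. The first 30 bases of the brightest probe, at chr17:34725384-34725442 of mm9, and of another tested probe, at chr17:35104770-35104829, are given in lower case to show that these are separate sequences.
Notch4, brightest probe: agtcactgctatctccgagaaccccaaact
Notch4, distant probe: ggttaggtatcaatgttttgatctaagctt
The distant probe was designed on a cloned cDNA and lies 379.4 kb from the brightest one, whereas the remaining probe, not well enough above background to be tested, lies 3.8 kb from it. With the brightest probe Notch4 read 1.77, 2.47 and 2.18 in wild-type and 2.53, 2.09, 2.48 and 2.33 in PRA transgenic glands. Wild-type replicate 1 was the lowest animal and the rest shared one range. This gave a log2 fold change of 0.22 (SE 0.20, adjusted p = 0.791 by limma, 95% interval -0.25 to 0.69), which was 0.03 without wild-type replicate 1. Cy5 alone gave 0.46 (95% interval -0.10 to 1.02). The distant probe ran from 3.00 to 6.15 with a log2 fold change of -0.90, and for it no array had the reference well above background. The files name this probe Notch4, but whether it measures Notch4 could not be settled from them. The endothelial markers stood at 4.80 to 4.85 in wild-type and at 4.65 to 5.05 in PRA transgenic glands (10 of 10 tested). The second probe of Notch1 had Cy5 well above background on 3 of 3 wild-type but 2 of 4 PRA transgenic arrays and Cy3 on none, so no fold is given for it, and the second probe of Notch2 was not well enough above background to be tested.

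The Jagged ligands followed the receptors in showing no separation. Jag1 (chr2:136907433-136907492) had log2 ratios of 2.00, 2.58 and 2.07 in wild-type and of 2.12, 1.23, 1.88 and 1.85 in PRA transgenic glands. All PRA transgenic animals except replicate 1 lay below all wild-type animals. The log2 fold change of -0.44 (SE 0.25, unadjusted p = 0.114, adjusted p = 0.649 by limma) was the lowest p of the members, and Cy5 alone gave -0.38. The ratio's log2 fold change for Jag1 was -0.26 without wild-type replicate 2, its highest animal, and also -0.26 without PRA transgenic replicate 2, its lowest. Jag2 (chr12:114146887-114146946) stood at 0.46, 0.97 and 1.12 in wild-type and at 0.60, 1.19, 1.55 and 1.05 in PRA transgenic glands. The groups overlapped, with PRA transgenic replicate 3 highest. Its log2 fold change was 0.24 in the ratio (SE 0.26, unadjusted p = 0.377 by limma) and 0.03 in Cy5 alone, while the Cy3 reference alone differed by -0.20. The reference was the same RNA on all arrays, and it nevertheless had an unadjusted p under 0.05 between the rows of the slide for 3 of the 10 members (Notch1, Jag2 and Dll1; background 10.7%).

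The Delta-like ligands were the members with a reference near background. Dll1 is a ligand known in the mammary epithelium and Dll4 is the ligand of sprouting vessels. Each has 1 tested probe, shown by its first 30 bases, at chr17:15504623-15504682 and chr2:119160779-119160838 of mm9.
Dll1: gattactatgagccagtctttccttgaact
Dll4: tttgcccagactccatcctcacagctgggc
Cy5 was well above background for both on all 7 arrays, but the reference was so on only 1 array each, wild-type replicate 3 for Dll1 and PRA transgenic replicate 1 for Dll4. Their ratios therefore divide by a value near background, which was not the case for the other 8 members, whose reference was well above background on all arrays.

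Dll1 had log2 ratios of 3.09, 3.78 and 3.33 in wild-type and of 3.94, 4.32, 3.77 and 3.27 in PRA transgenic glands. PRA transgenic replicates 1 and 2 were the highest, while replicate 4 lay within the wild-type values. For the ratio the log2 fold change was 0.43 (SE 0.27, adjusted p = 0.698 by limma). In Cy5 alone the order turned. The scaled log2 signal was -1.06, -0.34 and -0.18 in wild-type and -1.32, -1.28, -1.13 and -0.94 in PRA transgenic glands. Here the wild-type animals were higher apart from an overlap between wild-type replicate 1 and PRA transgenic replicate 4. The log2 difference of Cy5 alone was -0.64 (95% interval -1.17 to -0.11, unadjusted p = 0.0239 by limma), and that of the Cy3 reference alone was -1.06. The direction of Dll1 thus depended on the channel used, and the cause was not tested.

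Dll4 had log2 ratios of 1.86, 2.37 and 2.99 in wild-type and of 1.30, 3.64, 3.71 and 3.80 in PRA transgenic glands. In PRA transgenic glands 3 animals lay close together above every wild-type animal, and replicate 1 lay below all of them. That array was also the one with the bright reference spot, at a scaled log2 Cy3 signal of -2.85 against -5.98 to -4.18 on the other arrays. Dll4 had a log2 fold change of 0.70 (SE 0.65, adjusted p = 0.798 by limma, 95% interval -0.82 to 2.23), against 1.31 without PRA transgenic replicate 1 (unadjusted p = 0.0037, adjusted p = 0.473 by limma). In Cy5 alone Dll4 read -3.15, -1.82 and -2.99 in wild-type and -1.57, -2.07, -1.82 and -1.92 in PRA transgenic glands. Wild-type replicates 1 and 3 were low, and wild-type replicate 2 shared the PRA transgenic range. The log2 difference of Cy5 alone was 0.81 (95% interval 0.06 to 1.56, unadjusted p = 0.0385 by limma). Dll1 and Dll4 were the 2 of 10 members at an unadjusted p under 0.05 in Cy5 alone (background 7.59%), neither passed adjustment (lowest adjusted p among members 0.502, background 0.00889%), and no member had genotypes apart (background 8.6%).

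**Figure D2:**
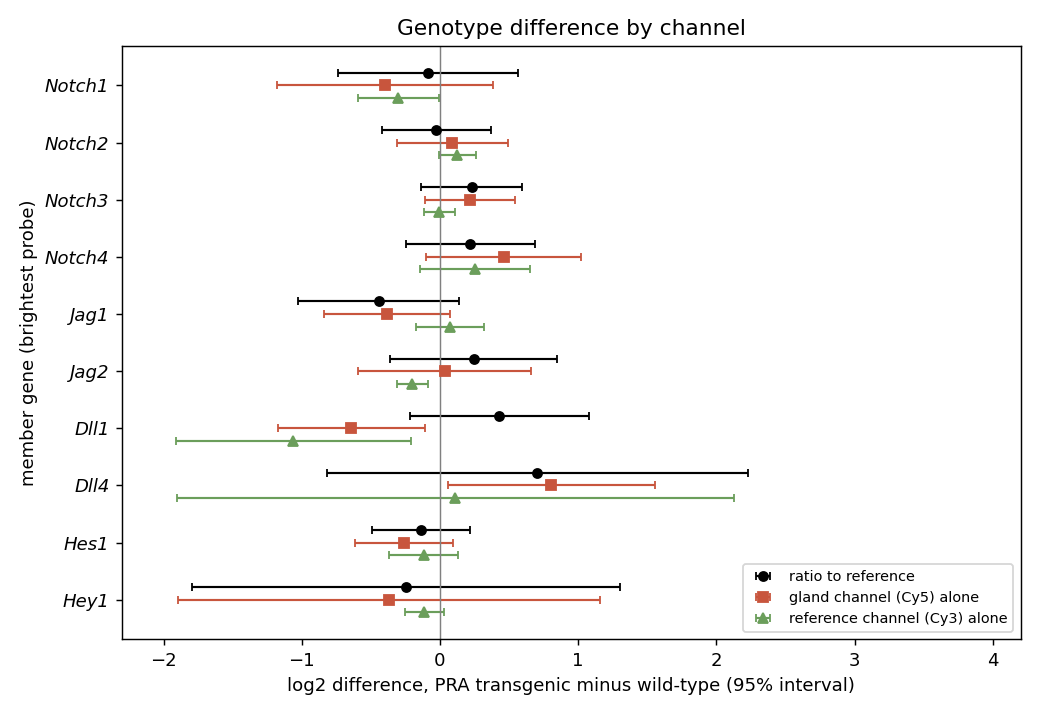
Log2 difference, PRA transgenic minus wild-type, of the 10 genes in the ratio (black circles), the gland channel alone (red squares) and the reference channel alone (green triangles), with 95% intervals from limma. Every interval of the ratio spans 0, the gland channel of Dll1 (-0.64) lies opposite to its ratio (0.43), and the interval of the reference channel is widest for Dll4.

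The target genes differed from each other in spread. Hes1 (chr16:30067820-30067879) encodes a basic helix-loop-helix repressor. Its log2 ratio was -0.45, -0.26 and -0.04 in wild-type and -0.30, -0.61, -0.39 and -0.25 in PRA transgenic glands. The groups overlapped within a narrow range. Hes1 had a log2 fold change of -0.14 (SE 0.15, adjusted p = 0.837 by limma), and the 95% interval reached no further than 1.40-fold. The SD of Hes1 within genotypes was 0.18, larger than that of 30.5% of genes.

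Hey1 encodes a related repressor, known in vessels and in stroma. It was read by 1 probe, at chr3:8663432-8663491 of mm9, whose first 30 bases are given because the largest SD within genotypes among the members rests on it.
Hey1: gatttgggctctaaaagtattgttttacag
Its log2 ratio was 2.32, 2.55 and 0.65 in wild-type and 1.78, 0.61, 1.08 and 2.93 in PRA transgenic glands. High and low animals occurred in both genotypes, and the lowest and the highest, both PRA transgenic, differed 4.99-fold. The SD within genotypes was 1.02 on the log2 scale, larger than that of 97.3% of genes. The spread lay in the gland channel, since the scaled log2 Cy5 signal ran from 0.28 to 2.52 and the Cy3 reference only from -0.50 to -0.24. Between genotypes the log2 fold change was -0.24 (SE 0.66, adjusted p = 0.951 by limma), and its 95% interval of -1.79 to 1.30 spans differences of up to 3.46-fold, which these 7 arrays could not resolve. Dll4 had an SD within genotypes of similar size, 1.01, and a wider range over the 7 animals, 5.68-fold, but its SD in Cy5 alone was 0.49, against 1.03 for Hey1.

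**Figure D3:**
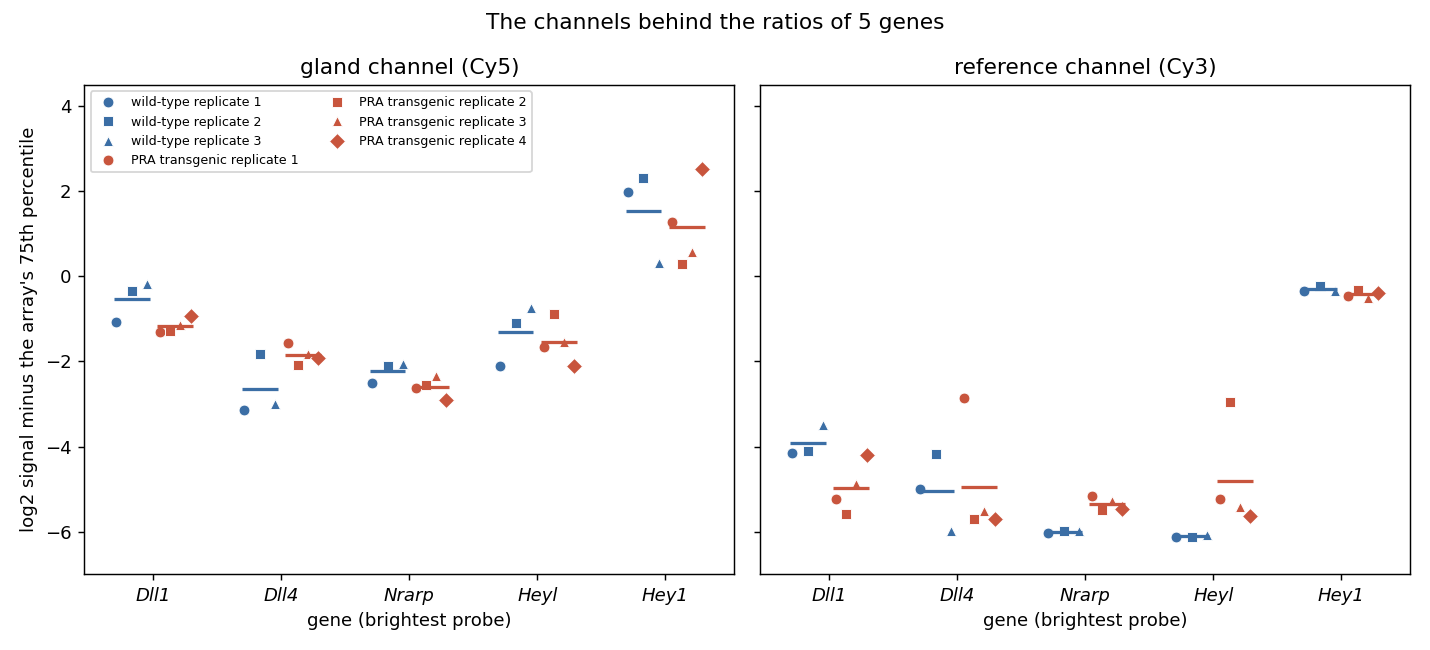
Scaled log2 signal (log2 signal minus the 75th percentile of the array) of 5 genes in the gland channel and in the reference channel, with 1 point per animal and bars at the genotype means. The reference is flat for Hey1 (-0.50 to -0.24) and dim and uneven for Dll1, Dll4 and Heyl. For both Nrarp and Heyl it is higher on all 4 PRA transgenic than on the 3 wild-type arrays.

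Across the 7 animals Hey1 and Notch2 were ordered nearly alike (Pearson r = 0.90, exact permutation p = 0.00516; Spearman rho = 0.96, exact permutation p = 0.00278; two-sided). Without the 2 animals farthest from the median of Notch2 r was 0.81. After adjustment over the 45 pairs of members the p was 0.232 for r and 0.125 for rho, so the relation did not pass, and no value was computed within a genotype, since each has under 6 animals. Jag2 and Dll4 were the other pair at an unadjusted p under 0.05 for r (r = 0.85, p = 0.0143; rho = 0.75, p = 0.0663; exact permutation tests), with an adjusted p of 0.322 and r = 0.89 without the 2 farthest animals. The Dll4 ratio divides by a reference near background, and no correlation was computed in Cy5 alone. In that channel PRA transgenic replicate 1 was the lowest animal for Jag2 (-1.44) but the highest for Dll4 (-1.57). Of 110 relations between members and cell type marker lists, 6 had an unadjusted p under 0.05 for r. None passed adjustment (lowest adjusted p 0.480 for r and 0.692 for rho). The strongest was Notch2 with macrophage markers (r = 0.94, exact permutation p = 0.00437; rho = 0.75, p = 0.0663), which fell to r = 0.72 without the 2 farthest animals. Dll1 with skeletal muscle markers, which stood apart in 3 glands, gave r = -0.86 (exact permutation p = 0.0208) and rho = -0.79 (exact permutation p = 0.0480). Without the 2 farthest animals r was -0.96. The Dll1 ratio also divides by a reference near background, and this relation was not computed in Cy5 alone. In that channel Dll1 stood at -1.06, -0.18 and -0.94 in the 3 glands high in these markers. In the other glands it stood at -0.34, -1.32, -1.28 and -1.13. Notch2 with fibroblast markers gave r = 0.88 (exact permutation p = 0.0179; rho = 0.57, p = 0.20), and 0.90 without the 2 farthest animals. Hey1 gave r = 0.77 with macrophage markers (exact permutation p = 0.0397; rho = 0.68, p = 0.110; r = 0.83 without the 2 farthest animals). The remaining relations at an unadjusted p under 0.05 for r did not last when the 2 farthest animals were left out. Notch4 with T cell markers went from r = -0.80 to -0.14 (exact permutation p = 0.0476, with rho = -0.29 and p = 0.556). Jag2 with luminal markers went from r = -0.81 to -0.24 (exact permutation p = 0.0248, with rho = -0.75 and p = 0.0663). By rho but not by r, 2 further relations had an unadjusted p under 0.05. They were Hes1 with B cell markers (rho = -0.82, exact permutation p = 0.0341, r = -0.52 and p = 0.260) and Notch3 with T cell markers (rho = -0.79, exact permutation p = 0.0480, r = -0.63 and p = 0.0679). Hey1 with fibroblast markers had r = 0.84 (exact permutation p = 0.0540; rho = 0.54, p = 0.236; r = 0.78 without the 2 farthest animals), and with skeletal muscle markers r = 0.25 (exact permutation p = 0.556; rho = 0.43, p = 0.354; r = -0.37 without them).

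**Figure D4:**
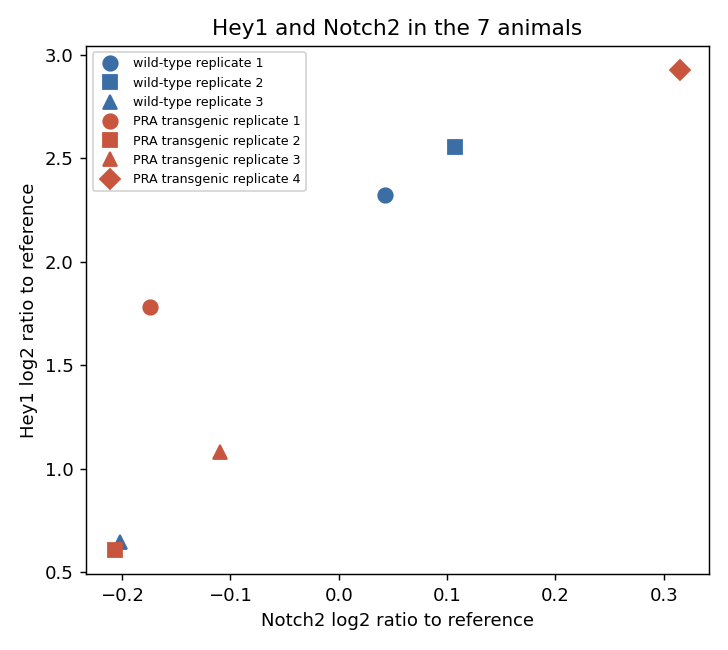
Log2 ratio to the reference of Hey1 against that of Notch2, 1 point per animal, colored by genotype. The animals with the lowest Notch2 ratios (-0.21 and -0.20) have the lowest Hey1 ratios (0.61 and 0.65), and PRA transgenic replicate 4, alone at the upper end of Notch2 (0.32), is highest in both.

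Genes with a pattern most like each receptor were taken by Pearson r of the log2 ratio over the 7 arrays among 16013 genes, as a description. Notch1 was most like Styxl1 (r = 0.96) and Tmppe (0.94), with 26 genes above 0.9. For Notch2 these were Garnl3 (0.99) and Scrn1 (0.99), with 150 genes above 0.9. Notch3 was nearest to Safb2 (0.98) and Acrbp (0.97), and Notch4 to Clic5 (0.96) and Thap1 (0.96), with 36 and 44 genes above 0.9. The rankings rest on 7 points each.

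The members were set beside 62 other genes of the pathway, grouped by role, of which 57 could be tested. Of these 27 had a higher and 30 a lower mean ratio in PRA transgenic glands, with a median log2 fold change of -0.01. At an unadjusted p under 0.05 limma called 4, all lower in PRA transgenic glands (7.02%, background 4.35% in that direction and 7.95% in both), and none passed adjustment (lowest adjusted p 0.271). The genotypes did not overlap for 7 of the 57 (12.3%, background 9.09%). The 4 genes were Nrarp, Heyl, Adam10 and Itch.

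Nrarp and Heyl belong to the further targets, of which 5 of 9 were tested. Nrarp encodes an ankyrin repeat protein that dampens Notch signaling and Heyl a repressor related to Hey1. Their probes lie at chr2:25038038-25038097 and chr4:122926975-122927034 of mm9. The first 30 bases are given because the log2 difference was smaller in the gland channel than in the ratio, in the same direction.
Nrarp: ttttttgaatcttggttatgaacccaattt
Heyl: aatcattttcttcaaggtctttgcccttct
Nrarp had log2 ratios of 3.53, 3.89 and 3.93 in wild-type and of 2.55, 2.95, 2.96 and 2.57 in PRA transgenic glands. All wild-type animals lay above all PRA transgenic animals. Nrarp had a log2 fold change of -1.02 (SE 0.17, unadjusted p = 5.32e-04, adjusted p = 0.271 by limma). In Cy5 alone the difference was -0.39 (unadjusted p = 0.0636 by limma) and the genotypes overlapped. Scaled by the median or by quantiles, Cy5 alone gave -0.46 and -0.45 (unadjusted p = 0.0449 and 0.0453, adjusted p = 0.502 and 0.540 by limma). The reference alone was higher by 0.65 on the PRA transgenic arrays and well above background on 0 of 7 arrays.

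Heyl stood at 4.04, 5.02 and 5.36 in wild-type and at 3.60, 2.09, 3.90 and 3.53 in PRA transgenic glands. Its genotypes also lay apart, with PRA transgenic replicate 2 lowest. Heyl had a log2 fold change of -1.53 (SE 0.50, adjusted p = 0.462 by limma). In Cy5 alone it was -0.23 with overlapping genotypes. Only PRA transgenic replicate 2 had a reference signal clear of background for Heyl, and the reference alone differed by 1.30. Nrarp is among the 2318 genes with a reference well above background on no array. Of these 18.5% had an unadjusted p under 0.05 by limma, and 14.5% had it with a lower ratio in PRA transgenic glands. Heyl, like Dll1 and Dll4, is among the 3108 genes with such a reference on some arrays, where these shares were 10.4% and 3.06%. For the 17073 genes with such a reference on all arrays they were 6.07% and 3.22%.

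Adam10 and Itch act on the receptor itself, Adam10 as a protease that cuts its extracellular part and Itch as a ubiquitin ligase. Both channels were well above background on all 7 arrays for both genes. Adam10 had log2 ratios of 0.46, 0.14 and 0.21 in wild-type and of 0.04, -0.10, -0.21 and -0.06 in PRA transgenic glands. Itch had log2 ratios of 0.17, 0.40 and 0.38 in wild-type and of 0.02, -0.10, -0.11 and 0.03 in PRA transgenic glands. In each gene every wild-type animal was above every PRA transgenic animal. The log2 fold change was -0.35 for Adam10 (SE 0.13, adjusted p = 0.495) and -0.36 for Itch (SE 0.12, adjusted p = 0.462, both by limma), and Cy5 alone gave -0.33 and -0.40. Other probes of these genes went differently. The median over the tested probes of a gene gave a log2 fold change of -0.11 for Adam10 and of 0.10 for Itch.

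In the remaining groups no gene had an unadjusted p under 0.05. Of the gamma-secretase genes 6 of 6 were tested, and their log2 fold changes ran from -0.80 for Aph1b (SE 0.97) to 0.19. The brightest subunits were Psenen at 0.19 and Aph1a at 0.10. The 10 genes of the nuclear complex lay between -0.32 and 0.41, with 0.09 for Snw1 and -0.01 for Crebbp. The value of 0.41 was that of Rbpjl, a dim gene with Cy5 well above background on only 4 arrays and no value for PRA transgenic replicate 1. The 12 co-repressors lay between -0.36 and 0.31, with 0.03 for Ctbp1 and 0.01 for Hdac1. Their medians were -0.01, -0.05 and 0.06, against 0.01 over all genes. Among the genes for processing and trafficking, the brightest were the convertase gene Furin at 0.18 and the glycosyltransferase gene Mfng at -0.38 (adjusted p = 0.586 by limma). Of the further ligands Dlk1 stood at 0.04 and Dlk2 at 0.06, and of the further targets Hes6 stood at 0.09 and Hes7 at 0.07. Dll3, Hes3, Hes5, Hey2 and Ptcra were not well enough above background to be tested.

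**Figure D5:**
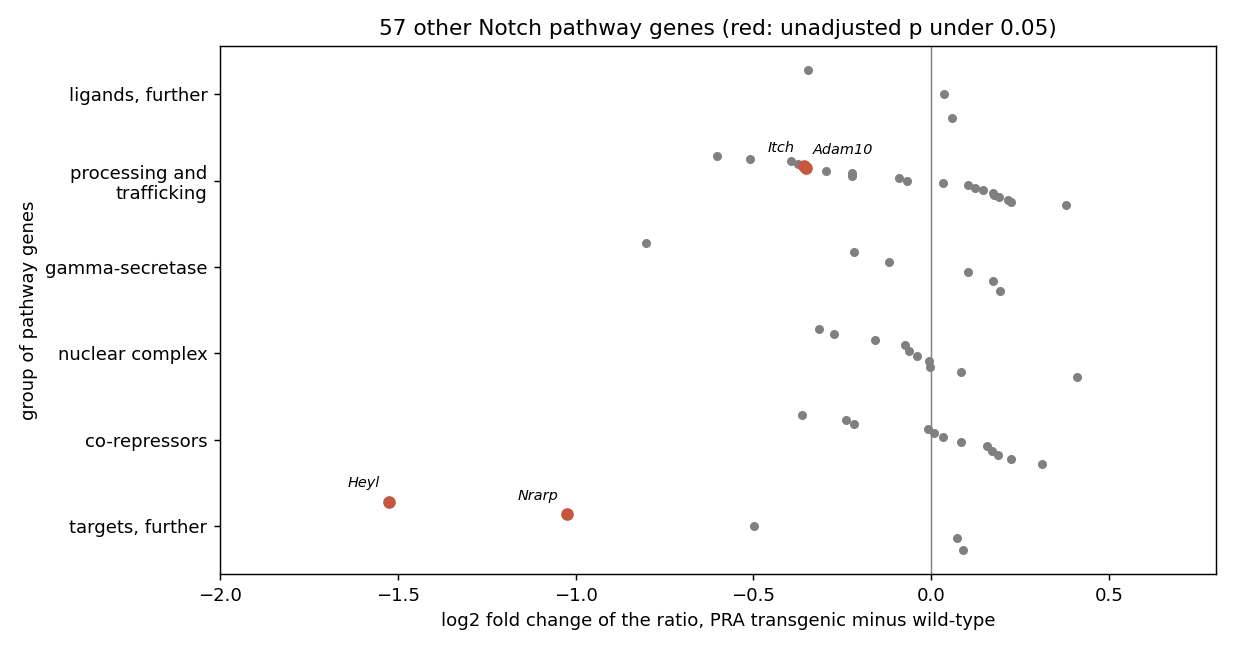
Log2 fold change of the ratio, PRA transgenic minus wild-type, of 57 other Notch pathway genes by group, 1 point per gene (brightest probe), with the 4 genes at an unadjusted p under 0.05 in red and named. Values lie on both sides of 0 in each group, and Heyl (-1.53) and Nrarp (-1.02), whose reference is near background, lie farthest to the left.

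The letters TGGGAA, the core of the motif known for Rbpj, were looked for on both strands of the RefSeq promoters of GRCm38.p6, short windows around each gene's start. None of the 9 promoters of the 8 members matched (Notch1 to Notch4, Jag1, Jag2, Dll1 and Dll4) held them, compared with 25.6% of 32851 promoters and 19 of the 66 promoters of the other pathway genes. This says only that these letters are not in these windows. Hes1 and Hey1 had no entry.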

How the data were processed

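The authors deposited, for each of the 7 arrays, the output of Agilent Feature Extraction (12.0 per the labels, 11.5.1.1 per the file headers) with processed Cy5 and Cy3 intensity, background-subtracted and dye-normalized, and a series table of log2 ratios, found to be the same ratios centered on each probe's median. The genome build in the files is mm9. From the processed intensities log2(Cy5/Cy3) was taken leaving out control spots and outlier spots (98 to 198 of 59305 spots per array; 0 saturated) and averaging repeated spots. A probe was tested if its Cy5 signal was flagged well above background throughout 1 genotype or both, which held for 34284 of 56605 probes, with lmFit and eBayes of limma 3.58.1 (R 4.3.3), with Benjamini-Hochberg adjustment over all of them, on a procedure tested on simulated data. The methods name an unpaired t-test, which was an alternative. The brightest kept probe in Cy5 stood for a gene, and 12 of 15 member probes were kept. Cy5 alone was log2 signal minus the 75th percentile of the array. Precision is limited by there being 7 arrays. Genotypes and replicate numbers came from the labels, and each array is 1 animal.

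The members and gene lists were chosen with earlier results of these data known. Named were all members, each listed pathway gene at an unadjusted p under 0.05, the 2 brightest genes of each group and, for the receptors, the 2 genes most like them. Marker lists covered endothelium, mural cells, luminal and basal epithelium, white adipocytes, skeletal muscle, fibroblasts, T cells, B cells, macrophages and proliferation. Alternatives were leaving out each array, the series table, the median over probes, Cy5 alone, normexp (offset 50) followed by loess, quantile normalization, a stricter or absent filter, array weights, a trend of variance with intensity, the methods' t-test and a block for the replicate number. Scaling Cy5 alone by the median or by quantiles was chosen after seeing the data.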

Additional observations from a re-analysis of the deposited data

Results flagged for a closer look

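In 27 sets of 4 PRA transgenic values (tested member probes, the 4 pathway genes at an unadjusted p under 0.05, and marker lists), 4 had 1 animal far from the others, where chance flags about 1 in 20. Dll4 in PRA transgenic replicate 1 lay below the others, with a gap of 0.937 of the range of the 4 animals. The mean of the endothelium markers was lowest in PRA transgenic replicate 2 (gap 0.867 of the range, 4.65 against 5.00 to 5.05). Skeletal muscle markers were highest in PRA transgenic replicate 4 (gap 0.887), as were fibroblast markers (gap 0.870, 2.76 against 2.20 to 2.27). Hey1 and Notch2 were also highest in PRA transgenic replicate 4. Across the 7 animals their r with fibroblast markers was 0.84 and 0.88 (exact permutation p = 0.0540 and 0.0179, both 0.589 after adjustment; rho = 0.54 and 0.57, p = 0.236 and 0.20), and with skeletal muscle markers 0.25 and 0.41 (exact permutation p = 0.556 and 0.344; rho = 0.43 and 0.39, p = 0.354 and 0.396).

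The other marker lists, as mean log2 ratios, ran from 3.42 to 4.05 in wild-type and from 3.33 to 3.79 in PRA transgenic glands for luminal epithelium, and from 2.98 to 3.24 and from 3.16 to 3.33 for basal epithelium. White adipocyte markers ran from 5.36 to 5.66 and from 5.37 to 6.01, macrophage markers from 1.51 to 1.98 and from 1.49 to 2.45, B cell markers from -2.31 to 0.68 and from -2.32 to -1.49, and proliferation markers from -4.65 to -1.98 and from -4.35 to -2.54.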

How the results depend on the processing

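Over 20 alternatives, 2 of them added after seeing the data, 258 of 276 log2 fold changes of members and of the 4 named pathway genes kept their direction. No member passed adjustment under any of the alternatives. The methods' t-test, the variance trend, the absent or stricter filter and the series table left every log2 fold change they gave as reported. Their part in the 258 is therefore no check of direction. The number of members at an unadjusted p under 0.05, 0 of 10 as reported, became 1 with normexp and loess (Jag1), 2 with Cy5 alone (Dll1 and Dll4), and 1 with Cy5 alone scaled by the median or by quantiles (Dll1). With 1 array left out it ranged from 0 to 1 (Dll4 without PRA transgenic replicate 1, and Dll1 at 0.61 without replicate 4), the count at an adjusted p under 0.05 from 0 to 0, members whose genotypes did not overlap from 0 to 3 (Notch3 without wild-type replicate 2; Dll4, Jag1 and Notch3 without PRA transgenic replicate 1), and other pathway genes at an unadjusted p under 0.05, 4 as reported, from 3 to 10 (10 without wild-type replicate 1, 7 without PRA transgenic replicate 4). That last count was 2 where both channels had to be well above background on all arrays, 7 with the methods' t-test, 2 with the median over probes and 7 with Cy5 alone scaled by the median.

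Dll1 turned to -0.39 with normexp and to -0.64, -0.72 and -0.65 in Cy5 alone by the 75th percentile, the median and quantiles. Notch2, near 0 as reported, turned to 0.090, 0.013 and 0.10 in the same 3 settings, to 0.0034 and 0.036 without wild-type replicate 1 or 2, and to 0.017 and 0.028 without PRA transgenic replicate 1 or 2 (-0.15 to 0.036 over all arrays left out). Notch1 turned to 0.091 without wild-type replicate 1 and 0.12 without PRA transgenic replicate 2 (-0.22 to 0.12), and Hey1 to 0.11 without wild-type replicate 2 and 0.086 without PRA transgenic replicate 2 (-0.84 to 0.11). With 1 array left out Notch3 ran from 0.17 to 0.32, Notch4 from 0.035 (without wild-type replicate 1) to 0.39, Jag1 from -0.56 to -0.26, Jag2 from 0.048 (without wild-type replicate 1) to 0.41, Dll1 from 0.26 to 0.62, Dll4 from 0.43 to 1.31 and Hes1 from -0.24 to -0.032 (without wild-type replicate 3). Jag2 turned to -0.043 in Cy5 alone scaled by the median. The median over probes turned Itch to 0.10 and Notch4 to -0.34, the latter through the distant probe, for which it is not settled that it measures Notch4. Nrarp shrank to -0.24 and Heyl to -0.50 with normexp. The cause was not tested in any of these.

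Correlations of same-numbered deviations were 0.10, -0.30 and 0.04, and those of differently numbered ones ran from -0.30 to 0.38. With 3 and 4 animals these values cannot decide whether the replicate numbers pair the samples. With the replicate number as a block, members at an unadjusted p under 0.05 numbered 1 (Dll1 at 0.61) and other pathway genes 2 (Nrarp and Heyl). Replicate number 4 occurs only among PRA transgenic glands, so that animal adds nothing to the genotype difference in this fit. The log2 fold changes are therefore the same as without PRA transgenic replicate 4. The stricter filter gave no value for Dll1, Dll4, Nrarp and Heyl, and the slide as a block was not run, since there was 1 slide. Dim reference signal limits the ratios of those 4 genes, and the 7 arrays limit the rest.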
